A study of Mus musculus with 19 samples.

Results

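The cyclin-dependent kinase (CDK) inhibitors and the retinoblastoma family of pocket proteins hold cells before DNA replication, and 9 of their genes were followed in small intestinal crypts of fed and fasted mice with and without neurotensin (Nts). They were chosen by name, as members of 3 families: the Cip/Kip inhibitors Cdkn1a, Cdkn1b and Cdkn1c, the INK4 inhibitors Cdkn2b, Cdkn2c and Cdkn2d, and the pocket proteins Rb1, Rbl1 and Rbl2. The files list 55487 genes; 17875 passed a filter on low counts and were tested, all 9 members among them. With fasting, Rb1 and Rbl1 fell in the Nt+/+ mice, 2 of 9 members at an adjusted p under 0.05, against 21.6% of all genes tested. Among the Nt-/- mice Rb1 fell and Cdkn1a and Rbl2 rose, 3 of 9 members against 25.2% of all genes. No member passed the test between genotypes in fed or in fasted mice (0.00559% of all genes in each) or the test for a difference between genotypes in the effect of fasting (0%).

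Crypts are epithelial pits that hold stem cells, Paneth cells and rapidly dividing progenitors, and neurotensin is a gut hormone released after a meal. The study asked whether loss of neurotensin changes how crypts respond to 48 hours without food. Each of 19 C57BL/6 mice gave a single library; 9 had free access to chow (ad libitum), namely 5 Nt+/+ and 4 Nt-/-, and 10 had been fasted for 48 hours, 5 of each genotype. The knockout is in every cell throughout life. Per the paper, the mice of both genotypes also carried an Lgr5-EGFP reporter. Both sexes were used, and the fed controls were littermates matched to the fasted mice for sex and age. The crypts were shaken with a chelator from the small intestine without its distal part, whereas neurotensin-producing cells are most frequent distally.

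Total counts ranged from 9059418 to 35068669 per mouse (median, 18541770). Nts lay between 4.98 and 8.59 CPM (reads of a gene scaled to the size of the library) in the Nt+/+ mice and between 0.144 and 0.793 CPM in the Nt-/- mice. Replicate 5 of the fasted Nt+/+ group carries an Nt-/- genotype label but an Nt+/+ title. It was grouped by its title and had 5.43 CPM of Nts. This value lay between the lowest and highest of the other fasted Nt+/+ mice (4.98 and 5.71 CPM) and above every mouse titled Nt-/-. The libraries held markers of the crypt's cell types: the summed level of 4 stem cell markers ranged from 837 to 2574 CPM and that of 5 Paneth cell markers from 14641 to 35396 CPM, against 2.69 to 11.7 CPM for 10 markers of stroma, endothelium and muscle. Immune cell RNA was present too, with 9 lymphocyte markers at 82.8 to 282 CPM and 4 myeloid cell markers at 14.6 to 34 CPM. The lymphocyte sum had medians of 124 CPM in fed and 146 CPM in fasted Nt+/+ mice. In the Nt-/- mice its medians were 130.3 CPM fed and 198 CPM fasted. The part of immune cells in the members' values was not tested. In RNA from whole crypts, fewer cells of a type and less RNA per cell cannot be told apart.

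A dividing cell passes from G1 into S phase when cyclin D and cyclin E kinases phosphorylate the pocket proteins, which then release E2F transcription factors. INK4 inhibitors bind the cyclin D kinases, Cip/Kip inhibitors bind cyclin-CDK complexes more broadly, and both keep pocket proteins in the form that holds E2F target genes silent. In the crypt, progenitors leave the cycle as they move up toward the villus and differentiate.

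Rbl1 and Rbl2 encode the related pocket proteins p107 and p130, and with fasting the first was called lower in the Nt+/+ mice and the second called higher in the Nt-/- mice, so the stretch of promoter before each start site is shown. Neither gene passed the test for a difference between genotypes in the effect of fasting. Both windows are 250 bases of the RefSeq sequence of GRCm38.p6, printed 5′ to 3′ on the gene's own strand, with a motif match in capitals. The Rbl1 window, chr2:157204535-157204784 on the minus strand, holds the E2F motif TTTCGCGC from base -18 to base -11 before the start. The Rbl2 window, chr8:91069807-91070056 on the plus strand, holds the cell cycle homology region (CHR) motif TTTGAA on the reverse strand, where it reads TTCAAA, from base -201 to base -196.

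Rbl1: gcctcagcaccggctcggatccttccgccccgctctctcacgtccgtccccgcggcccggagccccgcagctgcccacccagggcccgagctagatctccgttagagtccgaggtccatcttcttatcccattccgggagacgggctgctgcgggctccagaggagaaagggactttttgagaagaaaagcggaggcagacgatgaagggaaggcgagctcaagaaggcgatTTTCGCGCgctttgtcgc
Rbl2: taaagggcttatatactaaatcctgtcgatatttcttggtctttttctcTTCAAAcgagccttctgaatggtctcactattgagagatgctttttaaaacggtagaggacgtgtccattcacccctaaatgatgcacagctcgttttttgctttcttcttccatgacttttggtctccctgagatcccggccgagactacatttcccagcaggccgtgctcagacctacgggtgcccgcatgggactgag

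Windows were found for 7 of the 9 members, all but Rb1 and Cdkn1c, and some genes had more than 1 start site. Both strands were searched for TTTCGCGC, TTTGGCGC, TTTCCCGC and TTTGCCGC (E2F), TTTGAA (CHR) and GTAAACA (FOXO, a family of factors active when insulin signaling is low). Among 32851 promoter windows of the same length, 1.86% held an E2F match, 16.0% a CHR match and 3.17% a FOXO match. Cdkn2b had the only other match among the members, a CHR from base -161 to base -156, and none of the windows had a FOXO match. Such a match is a description of the letters, not a site of binding.

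Levels of different genes were compared in TPM, which divides the reads of a gene by its length before scaling to the library. In ad libitum–fed Nt+/+ crypts, Cdkn1a (p21) was at a median of 36.9 TPM (range, 31.9 to 41.7), Cdkn2b (p15) at 36.7 TPM (32.4 to 43.3) and Rb1 (pRB) at 33.4 TPM (23.4 to 36.3). Cdkn1b (p27) followed at 22.3 TPM (20.3 to 26.2), Rbl1 at 21.9 TPM (16.3 to 22.8) and Rbl2 at 19.4 TPM (13.9 to 24.3). Within these 6 genes each pair of neighbours overlapped, while Cdkn1a and Cdkn2b lay above the ranges of Cdkn1b, Rbl1 and Rbl2. The other 3 genes were lower and overlapped with no neighbour: Cdkn2c (p18) at 9.12 TPM (8.18 to 10), Cdkn2d (p19) at 3.95 TPM (3.75 to 5.84) and Cdkn1c (p57) at 1.63 TPM (1.21 to 1.98). The order was the same with CPM divided by the deposited effective length.

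**Figure D1:**
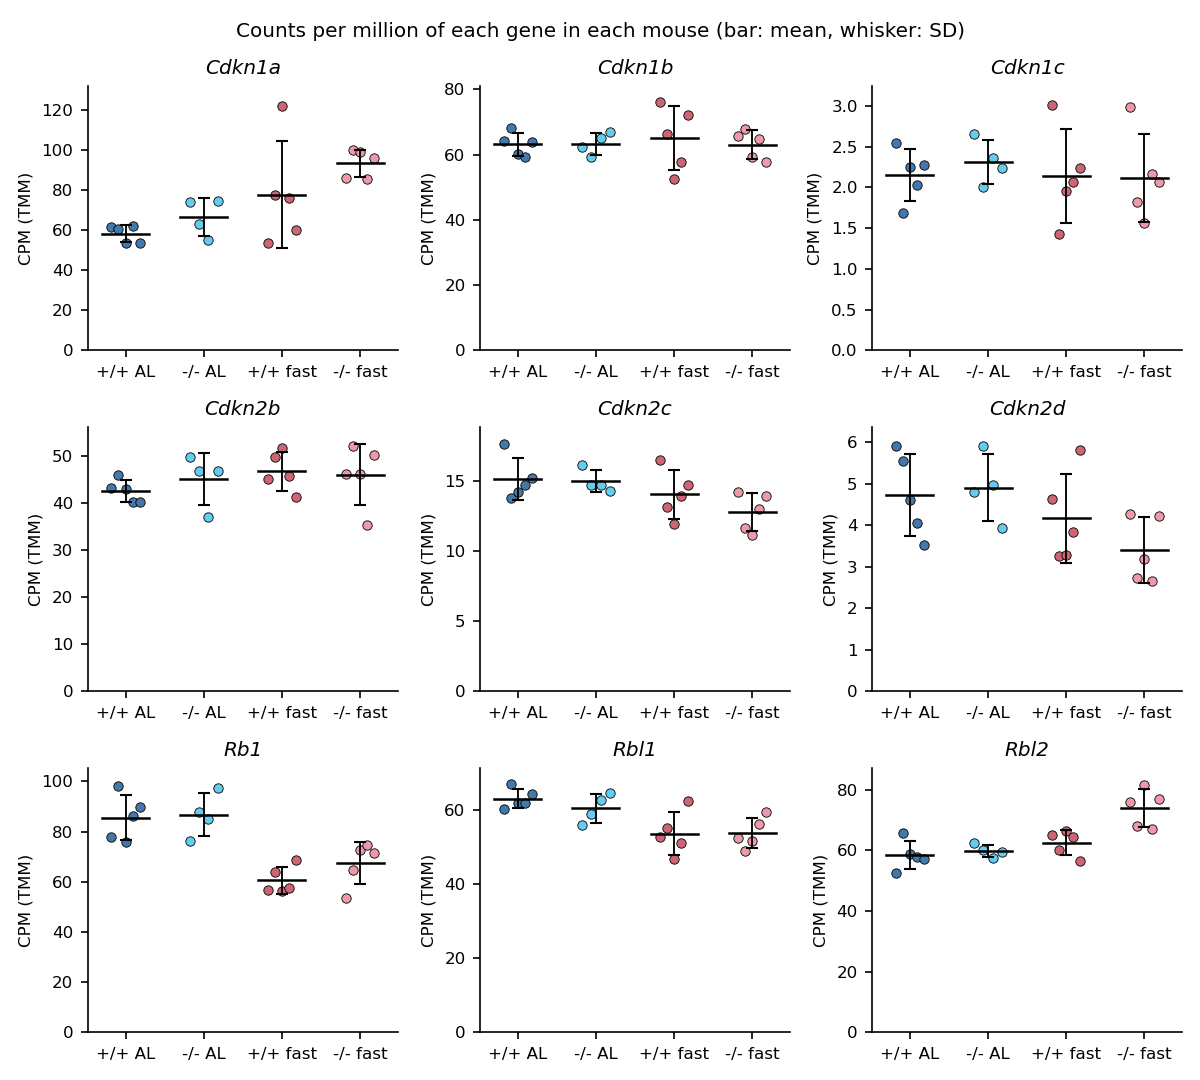
Level of each of the 9 genes in each of the 19 mice, in CPM on a linear axis from 0; points are mice, bars are group means, whiskers are SD, AL is ad libitum and fast is fasted for 48 hours. Rb1 is lower in the fasted mice of both genotypes. For Rbl2 the 5 fasted Nt-/- mice (67 CPM or more) lie above the fed Nt-/- and the fasted Nt+/+ mice, where ranges did not overlap for 21.3% and 1.56% of all genes.

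The Cip/Kip family was examined first, because Cdkn1a is transcribed both in stress responses and as crypt cells leave the cycle. In the ad libitum–fed Nt+/+ mice Cdkn1a stood at 61.5, 60.4, 53.8, 62.2 and 53.4 CPM (58.2 ± 4.32, SD, n = 5). The fasted Nt+/+ mice had 53.5, 77.4, 122, 75.8 and 59.8 CPM (77.7 ± 26.9, SD, n = 5). Replicates 1 and 5 of the fasted mice lay within the range of the fed mice, and replicates 2, 3 and 4 lay above it. In the Nt-/- mice Cdkn1a had 73.8, 62.9, 55 and 74.3 CPM when fed (66.5 ± 9.29, SD, n = 4) and 86.1, 99.9, 98.8, 85.4 and 95.8 CPM when fasted (93.2 ± 6.95, SD, n = 5). All 5 fasted Nt-/- mice were above all 4 fed ones (CPM ranges did not overlap for 21.3% of all genes).

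Cdkn1a rose by 40.0% with fasting in the Nt-/- mice (log2 fold change, 0.49 ± 0.17, SE; adjusted p = 0.0381, edgeR). This call held in 9 of 18 other settings (adjusted p, 0.00335 to 0.128). It was lost on leaving out fed Nt-/- replicate 2 (0.0916) or 3 (0.128) or fasted Nt-/- replicate 2 (0.0699), 3 (0.0725) or 5 (0.064). In the Nt+/+ mice the log2 fold change was 0.42 ± 0.16 (SE), with a 95% interval of 0.091 to 0.74 and an adjusted p of 0.0629, which does not pass. Without fasted Nt+/+ replicate 1 the adjusted p was 0.014, and without replicate 5, the mouse with disagreeing labels, 0.0289. Without replicate 3, the mouse at 122 CPM, the log2 fold change dropped to 0.19 ± 0.11 (SE; adjusted p = 0.24). The difference between the genotypes in this effect was 0.069 ± 0.23 (SE; 95% interval, -0.41 to 0.54), so the data allow anything from a smaller to a larger effect in the Nt-/- mice.

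Markers of enterocytes, the absorptive cells that line the villus, also rose with fasting. Of 9 enterocyte markers, 7 rose in the Nt+/+ mice (11.2% of all genes) and 9 in the Nt-/- mice (12.5%). The median log2 fold changes were 0.89 and 1.08. Their summed level ranged from 4993 to 10366 CPM in the fed and 10158 to 20036 CPM in the fasted Nt+/+ mice, and from 7466 to 10801 CPM in the fed and 17907 to 23892 CPM in the fasted Nt-/- mice. The fasted Nt+/+ replicates 1 and 5, lowest in Cdkn1a, were also lowest in this sum, at 10158 and 11880 CPM, while replicates 2, 3 and 4 had 17760, 19991 and 20036 CPM. The fed Nt+/+ mice did not keep this order, although replicate 4 was highest in both. Their replicate 1 had the lowest sum, 4993 CPM, with 61.5 CPM of Cdkn1a. Their replicate 5 had a sum of 9243 CPM with the lowest Cdkn1a, 53.4 CPM. The fed Nt-/- mice had sums of 10672, 7801, 7466 and 10801 CPM, in replicate order, which rank as their Cdkn1a values do. In the fasted Nt-/- mice the sums were 17907, 23892, 23265, 20365 and 22961 CPM. These also rank as Cdkn1a does, except that replicates 1 and 4, the lowest in both, change places. No enterocyte marker was at 0 in any group, and the part of these cells in the Cdkn1a values was not tested.

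Cdkn1b, which holds quiescent and differentiated cells out of the cycle and is regulated largely through degradation of its protein, had close means in the 4 groups. They were 63.1 ± 3.58 (fed Nt+/+), 63.3 ± 3.34 (fed Nt-/-), 64.9 ± 9.77 (fasted Nt+/+) and 63.1 ± 4.4 CPM (fasted Nt-/-; SD, n = 4 or 5). The fasting log2 fold change was 0.04 ± 0.085 (SE; 95% interval, -0.14 to 0.22) in the Nt+/+ mice and -0.0081 ± 0.091 (SE; 95% interval, -0.20 to 0.18) in the Nt-/- mice. Cdkn1c, an imprinted inhibitor expressed mainly in development and in quiescent stem cells, had between 1.43 and 3.01 CPM in all 19 mice. Its fasting log2 fold changes of -0.0065 ± 0.2 and -0.12 ± 0.22 (SE; Nt+/+ and Nt-/-) had 95% intervals of -0.43 to 0.42 and -0.57 to 0.33, so changes within those limits are not excluded.

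None of the INK4 inhibitors passed the main test. In the fasting comparison of the Nt-/- mice, Cdkn2c passed in 2 and Cdkn2d in 1 of 18 other settings, all with replicate numbers as blocks (lowest adjusted p, 0.0197 and 0.0444, edgeR). Cdkn2b, a target of TGF-beta signaling, ranged from 35.2 to 52.1 CPM over the 19 mice, with fasting log2 fold changes of 0.13 ± 0.096 in the Nt+/+ and 0.03 ± 0.1 in the Nt-/- mice (SE; adjusted p = 0.351 and 0.872). Cdkn2c had 17.6, 13.8, 14.2, 14.7 and 15.2 CPM in the fed and 16.5, 13.1, 11.9, 13.9 and 14.7 CPM in the fasted Nt+/+ mice, and 16.1, 14.7, 14.7 and 14.3 CPM in the fed and 14.2, 11.6, 11.1, 13 and 13.9 CPM in the fasted Nt-/- mice. Only in the Nt-/- mice were all fasted values below all fed ones, by a narrow margin (CPM ranges did not overlap for 21.3% of all genes). There the log2 fold change was -0.23 ± 0.11 (SE; 95% interval, -0.45 to -0.0056; adjusted p = 0.127, edgeR). In the Nt+/+ mice it was -0.11 ± 0.1 (SE; adjusted p = 0.49).

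Cdkn2d, an inhibitor whose RNA oscillates with the cell cycle, was lower and more scattered. The Nt+/+ mice had 5.9, 5.56, 4.62, 4.06 and 3.53 CPM fed and 4.63, 3.27, 3.29, 3.83 and 5.82 CPM fasted, and these ranges overlap. Among the Nt-/- mice the fed had 4.81, 5.9, 4.96 and 3.94 CPM and the fasted 4.27, 2.72, 3.18, 2.66 and 4.23 CPM, which overlap at the fed mouse with 3.94 CPM. The fasting log2 fold changes were -0.18 ± 0.2 (SE; adjusted p = 0.554) and -0.50 ± 0.21 (SE; adjusted p = 0.0874, edgeR), and their difference was -0.32 ± 0.29 (SE; 95% interval, -0.92 to 0.28).

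Of the 5 calls in the fasting comparisons, 4 were of pocket protein genes. Rb1, whose product pRB binds the activating E2F factors, stood at 77.9, 98.1, 75.7, 86.4 and 89.7 CPM in the fed Nt+/+ mice (85.6 ± 9.1, SD, n = 5) and at 56.7, 64, 56.3, 57.4 and 68.6 CPM in the fasted ones (60.6 ± 5.49, SD, n = 5). Among the Nt-/- mice it had 76.4, 88, 85.1 and 97.5 CPM fed (86.8 ± 8.71, SD, n = 4) and 53.7, 64.9, 72.7, 74.8 and 71.3 CPM fasted (67.5 ± 8.55, SD, n = 5). Within each genotype, every fasted mouse was below every fed mouse. CPM ranges of fed and fasted mice did not overlap for 14.6% of all genes in the Nt+/+ and 21.3% in the Nt-/- mice.

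Rb1 fell by 29.2% in the Nt+/+ mice (log2 fold change, -0.50 ± 0.096, SE; 95% interval, -0.70 to -0.30; adjusted p = 0.000991, edgeR) and fell by 22.2% in the Nt-/- mice (log2 fold change, -0.36 ± 0.1, SE; 95% interval, -0.57 to -0.15; adjusted p = 0.0121). It passed in all 19 other settings run for the Nt+/+ mice (adjusted p, 3.10e-05 to 0.00382) and all 18 run for the Nt-/- mice (0.00155 to 0.0496). The difference between the genotypes was 0.14 ± 0.14 (SE; 95% interval, -0.16 to 0.43). On the TPM scale, which was not tested, the fed and fasted ranges of Rb1 overlapped in both genotypes.

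Rbl1, which is itself an E2F target and is most abundant in dividing cells, had 60.3, 67, 62, 62 and 64.4 CPM in the fed Nt+/+ mice (63.1 ± 2.63, SD, n = 5) and 52.8, 55.1, 46.8, 51.2 and 62.5 CPM in the fasted ones (53.7 ± 5.81, SD, n = 5). Only fasted replicate 5 reached the fed range. The Nt-/- mice had 55.9, 58.9, 62.8 and 64.7 CPM fed (60.6 ± 3.93, SD, n = 4) and 52.5, 49.1, 51.6, 56.4 and 59.5 CPM fasted (53.8 ± 4.11, SD, n = 5), and these ranges overlap. In the Nt+/+ mice Rbl1 fell by 15% (log2 fold change, -0.23 ± 0.073, SE; adjusted p = 0.0266, edgeR), and in the Nt-/- mice the log2 fold change was -0.17 ± 0.078 (SE; adjusted p = 0.122). The Nt+/+ call held in 13 of 19 other settings (adjusted p, 0.00481 to 0.074) and was lost on leaving out fed Nt+/+ replicate 2 (0.0636) or 5 (0.0548) or fasted Nt+/+ replicate 3 (0.074) or 4 (0.0662). The difference between the genotypes was 0.066 ± 0.11 (SE; 95% interval, -0.16 to 0.29).

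Rbl2, whose product p130 joins the repressor complex that silences cell cycle genes in resting cells, did not fall. It had 52.7, 65.6, 59, 57.7 and 57.3 CPM in the fed Nt+/+ mice (58.5 ± 4.64, SD, n = 5) and 65.2, 60.2, 66.3, 64.4 and 56.4 CPM in the fasted ones (62.5 ± 4.13, SD, n = 5), which overlap. The Nt-/- mice had 62.3, 60.0, 57.6 and 59.6 CPM fed (59.9 ± 1.93, SD, n = 4) and 76.1, 68, 81.6, 67 and 76.9 CPM fasted (73.9 ± 6.25, SD, n = 5). Every fasted Nt-/- mouse was above every fed Nt-/- mouse (CPM ranges did not overlap for 21.3% of all genes) and every fasted Nt+/+ mouse (1.56%). The lowest fasted Nt-/- mouse, at 67 CPM, was close to the highest fasted Nt+/+ mouse, at 66.3 CPM. In TPM the fasted Nt-/- mice (20.9 to 29) overlapped the fasted Nt+/+ mice (17 to 26.8) and the fed Nt-/- mice (16.7 to 21.5).

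Rbl2 rose by 23.5% with fasting in the Nt-/- mice (log2 fold change, 0.30 ± 0.074, SE; 95% interval, 0.15 to 0.46; adjusted p = 0.00469, edgeR) and passed in all 18 other settings (adjusted p, 0.000557 to 0.0409). In the Nt+/+ mice the log2 fold change was 0.10 ± 0.069 (SE; 95% interval, -0.048 to 0.24; adjusted p = 0.35). The difference between these effects, 0.21 ± 0.1 (SE; 95% interval, -0.0021 to 0.42), had an unadjusted p of 0.0521 and an adjusted p of 1 (edgeR), so a difference between the genotypes was not shown.

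**Figure D2:**
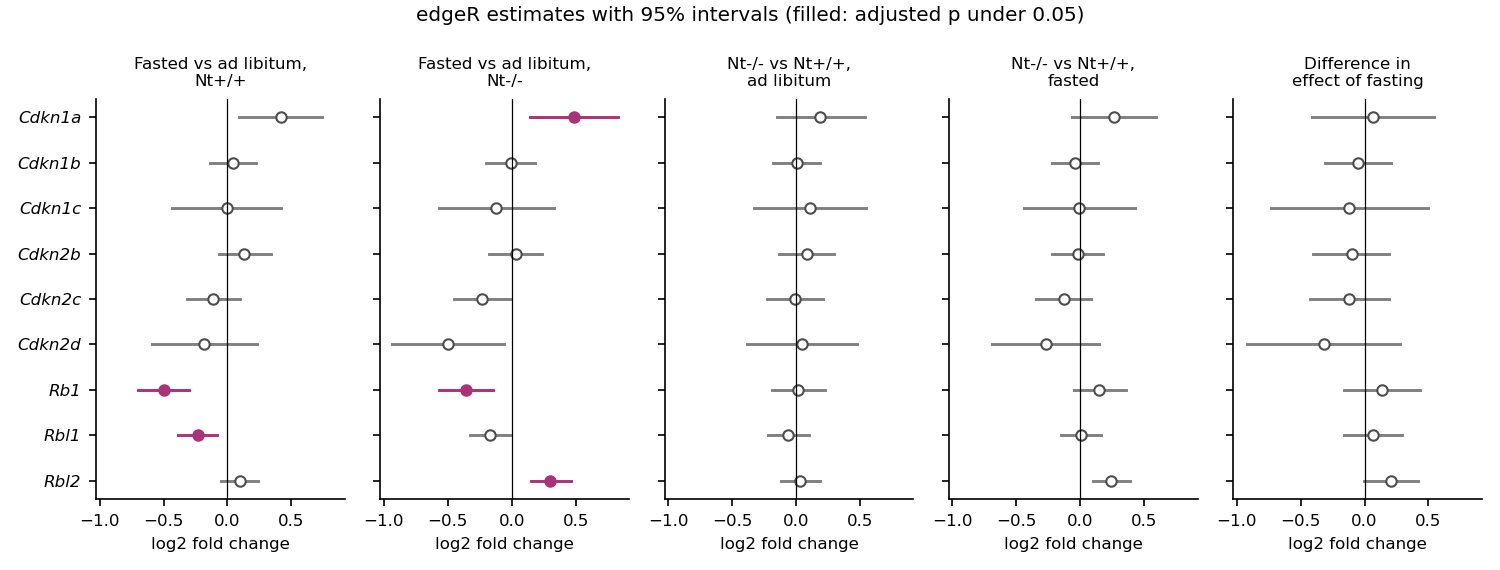
Log2 fold change of each gene in the 5 comparisons, with 95% intervals from edgeR; filled points have an adjusted p under 0.05. Filled points stand only in the fasting comparisons: Rb1 and Rbl1 below 0 in the Nt+/+ mice, and Rb1 below 0 and Cdkn1a and Rbl2 above 0 in the Nt-/- mice.

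Over the 9 members, fasting in the Nt+/+ mice called 2, both lower, where 11.2% of all genes were called higher and 10.4% lower. In the Nt-/- mice it called 3, of which 2 were higher and 1 lower, where 12.5% were called higher and 12.6% lower. With so many genes changed by fasting, these shares are near the background and do not set the members apart. CPM ranges of fed and fasted mice did not overlap for 1 member in the Nt+/+ mice (14.6% of all genes) and 4 in the Nt-/- mice (21.3%), and TPM ranges for 0 (11.4%) and 1 (14.1%), the last being Cdkn2d, lower when fasted. The median log2 fold change of the members was -0.0065 in the Nt+/+ and -0.12 in the Nt-/- mice, beside -0.0089 and -0.022 for all genes tested.

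The mix of pocket protein transcripts was then compared in TPM, as each gene's share of the sum of the 3. Rb1 took a median of 44.4% in the fed (range, 38.8% to 44.6%) and 35.3% in the fasted Nt+/+ mice (30.5% to 40.2%), and 44.1% in the fed (42.9% to 46.6%) and 34% in the fasted Nt-/- mice (30.4% to 41.3%). Rbl2 took 27.3% in the fed (25.6% to 31.4%) and 35.3% in the fasted Nt+/+ mice (30.1% to 42%), and 28.1% in the fed (25.9% to 29.6%) and 39.2% in the fasted Nt-/- mice (30.3% to 42.1%). The Nt-/- ranges did not overlap for either gene, and the Nt+/+ ranges did. The shares of the 3 genes add up to the whole, so a lower share of Rb1 raises that of the others together. The Rbl2 level itself had a median of 19.4 TPM in the fed and 19.6 TPM in the fasted Nt+/+ mice. In the Nt-/- mice its medians were 19.2 TPM fed and 23.1 TPM fasted. Rbl1 kept medians between 26.7% and 29.5% in the 4 groups. These shares come from the same mice as the tests above and add no independent evidence.

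**Figure D3:**
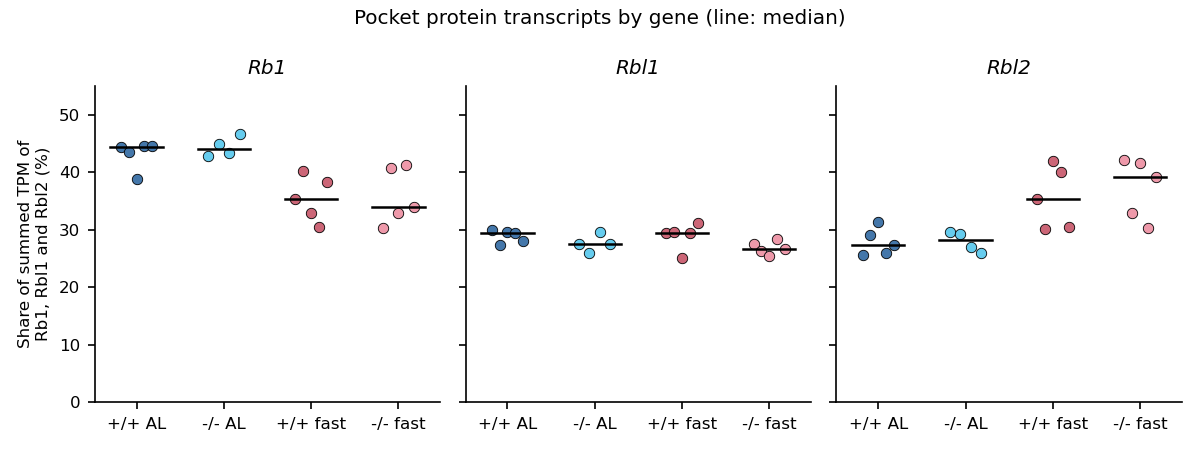
Share of each pocket protein gene in the summed TPM of Rb1, Rbl1 and Rbl2, in percent, for each mouse; lines are group medians. The median of Rb1 falls from 44.4% to 35.3% (Nt+/+) and from 44.1% to 34% (Nt-/-) while that of Rbl2 goes from 27.3% to 35.3% and from 28.1% to 39.2%. Shares add up to the whole, so a lower share of Rb1 raises that of the others together.

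To ask what loss of neurotensin did at each feeding state, the genotypes were compared directly. Among ad libitum–fed mice no member passed (background, 0.00559%, which is Nts alone), none had an unadjusted p under 0.05 (1.67% of all genes), and DESeq2 called none. The log2 fold changes ran from -0.06 ± 0.077 for Rbl1 to 0.19 ± 0.16 for Cdkn1a (SE). Among fasted mice no member passed either (0.00559%), and DESeq2 again called none. Rbl2 was the only member with an unadjusted p under 0.05 (9.14% of all genes) and the only one whose CPM ranges did not overlap (1.56% of all genes): it was 18.4% higher in the Nt-/- mice, with a log2 fold change of 0.24 ± 0.069 (SE; 95% interval, 0.10 to 0.39; adjusted p = 0.275, edgeR). Its adjusted p ranged from 0.0586 to 0.831 over 19 other settings, and from 0.221 to 0.514 among those that left out a mouse. The fasted genotypes differed by a log2 fold change of 0.26 ± 0.16 for Cdkn1a, 0.15 ± 0.096 for Rb1 and -0.27 ± 0.2 for Cdkn2d (SE; adjusted p = 0.662, 0.686 and 0.751). For the difference between genotypes in the effect of fasting, edgeR called 0 members (0% of all genes), with 0 at an unadjusted p under 0.05 (2.71% of all genes), and DESeq2 called 0.

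The partners of the members in G1 and S phase were counted in lists drawn up with earlier results of these data known. Of 14 G1 and S phase cyclins and CDKs, 6 fell with fasting in each genotype and none rose. Over all genes tested, 10.4% fell and 11.2% rose in the Nt+/+ mice, and 12.6% fell and 12.5% rose in the Nt-/- mice, which is the background for this and the other lists. Ccnd1, a cyclin D that activates the kinases that INK4 proteins block, fell by 47.6% in both genotypes (log2 fold change, -0.93 ± 0.18 and -0.93 ± 0.19, SE; adjusted p = 0.000906 and 0.00113). Ccnd3, another cyclin D, fell by 27.4% in the Nt+/+ mice and fell by 25.5% in the Nt-/- mice (adjusted p = 0.001 and 0.00258). The median of the list was -0.15 and -0.29.

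Of 16 E2F, DP and MuvB genes, a list that also holds E2F genes and Mybl2 whose products pocket proteins do not bind, 6 fell in the Nt+/+ mice, and 8 fell and 1 rose in the Nt-/- mice (median log2 fold change, -0.24 and -0.34). E2f2, an activating E2F, fell by 39.2% in the Nt+/+ mice and fell by 46.8% in the Nt-/- mice (adjusted p = 5.15e-05 and 6.26e-06). The repressive E2F genes E2f7 and E2f8 fell in both genotypes, with log2 fold changes of -0.55 and -0.69 for E2f7 and of -0.48 and -0.73 for E2f8 (Nt+/+ and Nt-/-). The gene that rose was Tfdp2, a DP partner of E2F factors, by 0.25 ± 0.088 (log2, SE; adjusted p = 0.0411).

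Of 24 proliferation genes, 14 fell in the Nt+/+ mice and 22 in the Nt-/- mice, and none rose (median log2 fold change, -0.37 and -0.53). Rrm2, a subunit of ribonucleotide reductase, fell by 42.3% in the Nt+/+ mice and fell by 49.2% in the Nt-/- mice (adjusted p = 7.66e-05 and 1.31e-05), and Cdc6, which loads the replicative helicase, fell by 40.3% in the Nt+/+ mice and fell by 48.1% in the Nt-/- mice (adjusted p = 0.000291 and 4.41e-05). The summed level of the list ranged from 2493 to 2908 CPM in fed and from 1516 to 2251 CPM in fasted mice, and Rb1 and Rbl1 were lower in the fasted groups too. Among fasted mice the sum had a median of 1774 CPM in the Nt-/- and 1978 CPM in the Nt+/+ mice. The mean of Rb1 was 67.5 and 60.6 CPM, a difference that did not pass the test (adjusted p = 0.686, edgeR). The mean of Rbl1 was 53.8 and 53.7 CPM. The part of the share of dividing cells in the Rb1 and Rbl1 values was not tested.

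Of 10 ubiquitin ligase parts that degrade CDK inhibitors, 1 fell in each genotype (median log2 fold change, -0.10 and -0.093), beside 10.4% and 12.6% of all genes. It was Ubac1, a subunit of a ligase for p27, which fell by 27.4% in the Nt+/+ mice and fell by 25.8% in the Nt-/- mice (adjusted p = 0.00756 and 0.0148). Of 11 transcription regulators of CDK inhibitor genes, 3 rose in the Nt+/+ and 5 in the Nt-/- mice, beside 11.2% and 12.5% of all genes, and none fell (median log2 fold change, 0.18 and 0.21). Klf4, a factor of differentiating epithelium that activates Cdkn1a, rose by 37.2% and by 51.1% (adjusted p = 0.025 and 0.00646). Smad2, a mediator of TGF-beta signaling, and Smad4, its common partner, rose in both genotypes, with log2 fold changes of 0.20 and 0.26 for Smad2 and of 0.18 and 0.29 for Smad4 (Nt+/+ and Nt-/-). No gene of these 5 lists passed the edgeR test between genotypes. Among fasted mice, however, 18 of 24 proliferation genes had an unadjusted p under 0.05 in this test (9.14% of all genes). Their median log2 fold change, Nt-/- against Nt+/+, was -0.24, with 1 gene above 0. Such a p was found for 5 of 16 E2F, DP and MuvB genes and 1 of 14 cyclins and CDKs, and for 0 genes of the other lists.

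**Figure D4:**
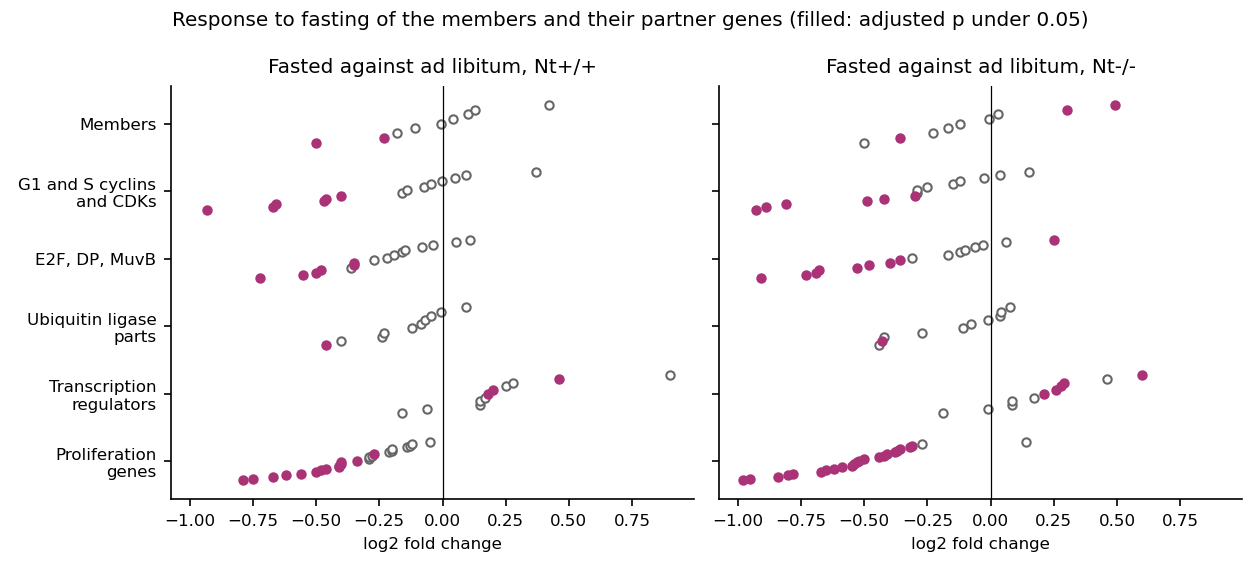
Log2 fold change with fasting of the 9 members and of 5 lists of their partners, 1 point per gene, in the Nt+/+ and Nt-/- mice; filled points have an adjusted p under 0.05 (edgeR). The members lie on both sides of 0, while the filled points of the cyclin, ubiquitin ligase and proliferation lists all lie below 0 and those of the transcription regulators above 0.

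The gene outside the list most like each member over the 19 mice was found by Pearson correlation of log2 CPM, as a description, since all values share the same libraries and the same 4 groups. The closest were Usp34 for Rb1 (r = 0.96), Agpat2 for Cdkn1a (0.94), Smc4 for Rbl1 (0.94), Pex26 for Cdkn2c (0.92) and Insr for Rbl2 (0.89). Those for the remaining members were C1galt1c1 for Cdkn2d (0.89), Spryd4 for Cdkn1c (0.88), Zfp266 for Cdkn1b (0.86) and Cx3cl1 for Cdkn2b (0.83).

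On GRCm38 the members lie on 8 chromosomes. The Cip/Kip genes are Cdkn1a at chr17:29090976-29100727, Cdkn1b at chr6:134920401-134925513 and Cdkn1c at chr7:143458339-143461050. The INK4 genes are Cdkn2b at chr4:89306299-89311039, Cdkn2c at chr4:109660876-109667189 and Cdkn2d at chr9:21288410-21291407. The pocket protein genes are Rb1 at chr14:73183673-73325822, Rbl1 at chr2:157145893-157204534 and Rbl2 at chr8:91070057-91123844.

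Some of these exons are shared with genes on the opposite strand, and since the strand setting of the counting is not stated, reads there could belong to either gene. Rb1 shares 488 exonic bases with Rcbtb2 and 408 with Lpar6, out of 6015. Rcbtb2 had a fasting log2 fold change of -0.30 ± 0.11 in the Nt+/+ and -0.078 ± 0.12 in the Nt-/- mice (SE; adjusted p = 0.0636 and 0.692). That of Lpar6 was -0.21 ± 0.12 and -0.031 ± 0.13 (SE; adjusted p = 0.249 and 0.9), and for both genes 4 of 5 fasted Nt+/+ mice were below all fed ones. Their part in the Rb1 values was not tested. Rbl2 shares 693 of its 7558 exonic bases with Aktip, at 0.0082 ± 0.084 with fasting in the Nt-/- mice, and 892 with Gm45464, at 0.46 ± 0.28 (log2 fold change, SE; adjusted p = 0.96 and 0.263). Gm45464 was at a mean of 3.96 CPM in the fasted and 2.88 CPM in the fed Nt-/- mice. Cdkn1a shares 273 of 3553 exonic bases with AC167363.2, at 0.51 ± 0.25 in the Nt+/+ and 0.27 ± 0.27 in the Nt-/- mice (log2 fold change with fasting, SE; adjusted p = 0.155 and 0.521), and Cdkn1c shares 625 of 2039 with Gm44732.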

How the data were processed

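RNA from the crypts of 19 mice was sequenced after ribosomal RNA depletion. Per the submitters' processing notes and the paper's methods, the authors trimmed reads with Trimmomatic 0.39 and counted them against GRCm38 with RSEM; the RSEM version and strand setting are not given in the sources used here. The deposited expected counts are not normalized and divide shared reads by RSEM's model. The deposited TPM values are per transcript length. They were used for levels between genes, for shares and sums over several genes, and for group ranges set beside those in CPM, and were not tested. The deposited effective length, another value, in bases, was used only for levels between genes. Expected counts were rounded, scaled by TMM and filtered with filterByExpr in edgeR 4.0.16 (R 4.3.3), and 17875 genes were tested by the quasi-likelihood test with 1 coefficient per group (15 residual degrees of freedom) and Benjamini-Hochberg adjustment over all of them. Standard errors were derived from the F statistic, as the size of the log2 fold change over its square root. CPM uses TMM library sizes. The common dispersion was 0.0357, a biological coefficient of variation of 18.9%.

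All 9 members are named. From each list, up to 2 genes with the smallest p among those called in each direction are named per fasting comparison, and for each member the most correlated gene. Members and lists were chosen with earlier results of these data known. Groups come from the titles. Other settings were upper quartile normalization, other filters, DESeq2 1.42.0, replicate blocks, sex as a covariate, the other genotype label, only the groups compared, and each mouse left out in turn. The scripts were tested on simulated data.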

Additional observations from a re-analysis of the deposited data

How the results depend on the processing

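The members called with fasting in the Nt+/+ mice numbered 2, and 1 without a filter on low counts or with only the groups compared in the fit (Rb1 in both; Rbl1 had an adjusted p of 0.0649 and 0.0541), and 1 to 3 on leaving out each mouse. In the Nt-/- mice they numbered 3, and 2 to 3 on leaving out each mouse. No member was called between genotypes or for the difference in any setting.

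The same replicate numbers occur in every group. Deviations from the group means correlated at a mean of 0.184 in 27 same-numbered pairs (-0.127 to 0.499, 19 pairs over 0.1) and -0.046 in 108 others. With the number in the file names, which differs for 2 mice, the means were 0.227 (0.067 to 0.499, 24 pairs over 0.1) and -0.056. Every pair with the same file number was thus above 0. What the numbers stand for is not stated. The main test left them out, and replicate blocks were run as other settings. With the title number as a replicate block, 6 members were called with fasting in the Nt-/- mice, Cdkn2c (adjusted p = 0.0197), Cdkn2d (0.0444) and Rbl1 (0.034) being added. With the file number as a block Cdkn2c was added (0.0493) and Cdkn1a lost (0.0599).

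The log2 fold changes whose sign turned had not passed the test. In the Nt+/+ mice fasted, Cdkn1c was 0.0034 with upper quartile normalization, 0.0028 with DESeq2 and -0.16 to 0.11 on leaving out a mouse, and Cdkn1b was -0.00064 by the genotype label and -0.022 to 0.11 on leaving out a mouse. In the Nt-/- mice fasted, Cdkn1b was 0.0074 with DESeq2, 0.027 with the file number as a block, 0.022 with sex as a covariate (without the mouse that has no sex label), 0.027 by the genotype label and -0.039 to 0.023 on leaving out a mouse, and Cdkn2b was -0.0043 with sex and -0.054 to 0.11 on leaving out a mouse. Between fasted genotypes Cdkn2d was 0.041 by the genotype label, and the difference between genotypes for Cdkn1a was -0.10 by that label and -0.04 to 0.29 on leaving out a mouse. The cause was not tested.

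Cdkn1a with fasting passed in the Nt+/+ mice with DESeq2 (0.0431) and by the genotype label (0.0478), and did not pass in the Nt-/- mice without a filter (0.0533), with sex (0.0626) or by the genotype label (0.103). Grouping by the genotype label puts a mouse with 5.43 CPM of Nts among the Nt-/- mice. Over all genes, DESeq2 called 101 in place of 1 between fasted genotypes and 3 in place of 1 between fed ones, and the genotype label gave 0 in both; without fasted Nt-/- replicate 1, edgeR called 4 between fasted genotypes. Using TPM in place of CPM, a choice made after seeing the data, moved the members whose ranges do not overlap from 1 to 0, from 4 to 1 and from 1 to 0 (fasting in Nt+/+, fasting in Nt-/-, fasted genotypes). Depth limits Cdkn1c and Cdkn2d most.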

Other observations

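The mix of CDK inhibitor transcripts was also taken as each gene's share of the summed TPM of the 6 inhibitors. Cdkn1a took a median of 32.7% in the fed (range, 31.6% to 36%) and 38.8% in the fasted Nt+/+ mice (29% to 50.4%), and 35.3% in the fed (33.3% to 36.7%) and 43.2% in the fasted Nt-/- mice (39.5% to 45.8%). The Nt-/- ranges do not overlap, and the Nt+/+ ranges do. Cdkn2b, the other abundant inhibitor, held medians between 29.5% and 32.9% in the 4 groups. The 6 genes together summed to a median of 115 TPM (101 to 127) in the fed and 128 TPM (101 to 143) in the fasted Nt+/+ mice, and to 117 TPM (101 to 139) and 134 TPM (115 to 158) in the Nt-/- mice, so the sums overlap within each genotype.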
